A study of Mus musculus with 2 samples.

Results

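Nuclear receptors are transcription factors, and many of them are switched on by small lipophilic ligands such as steroids, retinoids, thyroid hormone, fatty acids and oxysterols, while the orphan receptors act without a known or required ligand. Most share a zinc-finger DNA-binding domain, which reads variants of a common hexamer, and a ligand-binding domain, which recruits coactivators or corepressors. In early mouse embryos and embryonic stem cells the orphan receptors Esrrb, Nr5a2 and Nr0b1 belong to the network of the pluripotent state, whereas Nr2f1, Nr2f2 and Nr2e1 are transcription factors of the developing nervous system.

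The set described here holds 46 receptor genes, chosen by name, out of 33008 gene names on the array, and the array carried 100 non-control probes that bear their names. The samples were 46C mouse embryonic stem cells, a line with a GFP reporter at the Sox1 locus, taken on day 5 of neural differentiation from floating aggregates in medium with knockout serum replacement. There was 1 array of wild type cells and 1 array of cells labelled as a knockout of the long intergenic RNA Linc1548, so each group had a single sample and no value below has a replicate check. The labels do not say how the knockout was made, whether it was 1 clone, or how many cultures went into the RNA, and no probe bears the name Linc1548, so the labels could not be checked on the targeted transcript. The comparison asks how loss of Linc1548 bears on the passage from epiblast-like cells to neural progenitors, as the title of the series puts the question.

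A probe counted as measured where the scanner software called it well above background on both arrays, and the value of a gene was the median log2 difference, knockout minus wild type, of its measured probes. Of the 46 receptors, 33 were measured on both arrays, through 54 probes. Of these, 8 were at least 2-fold higher on the knockout array, which is 24.2% of the measured receptors against 11.5% of the 18690 gene names measured. Another 3 were at least 2-fold lower, 9.09% against 8.81% of all gene names measured, a share near that background under the main processing. The other 22 lay within 2-fold, between log2 differences of -0.94 and 0.93. The median log2 difference was 0.00 for the receptors (interquartile range -0.36 to 0.93) and 0.10 for all measured gene names (-0.34 to 0.51). No test was possible with 1 array a group, and the 2-fold limit is a fixed limit of size.

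The remaining 13 receptors had no measured difference. In 5 of them the signal was well above background in wild type cells only (Esrrg, Nr2e1, Nr1h4, Rorb and Vdr), and in 3 in knockout cells only (Hnf4g, Esr1 and Nr1i3). Across all gene names these patterns made up 4.83% and 2.89%. Such a gene gets a lower bound in place of a fold, against the lowest signal called well above background on the other array. The bound reached 2-fold for 3 of the 5 and for 2 of the 3 receptors, against 24.2% and 73.9% of all gene names of these patterns. Not well above background on either array were 5 receptors: Thrb, the second thyroid hormone receptor, Ppara, the fatty acid receptor of liver, Nr1i2, a xenobiotic sensor, Nr2e3, a photoreceptor factor, and Nr0b2, a corepressor of bile acid signalling. In all, 38 receptors (82.6%) passed that call in wild type cells and 36 (78.3%) in knockout cells, against 61.5% and 59.6% of all gene names. A gene passed where any of its probes did, so a gene with more probes had more ways to pass. The part of probe number in these shares was not tested.

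By subfamily, 2 of 11 measured NR1 receptors were at least 2-fold higher and none lower, with a median log2 difference of 0.09. In NR2, 1 of 9 was higher and 2 were lower (median -0.55), and in NR3, 3 of 6 were higher and none lower (median 0.80). In NR4, 1 of 3 was lower and none higher. NR5 had 1 of 2 higher, NR0 had its only measured member higher, and the only NR6 member lay within 2-fold. Beside these counts, and those of the gene lists below, stand shares of 11.5% higher and 8.81% lower over all gene names measured.

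**Figure D1:**
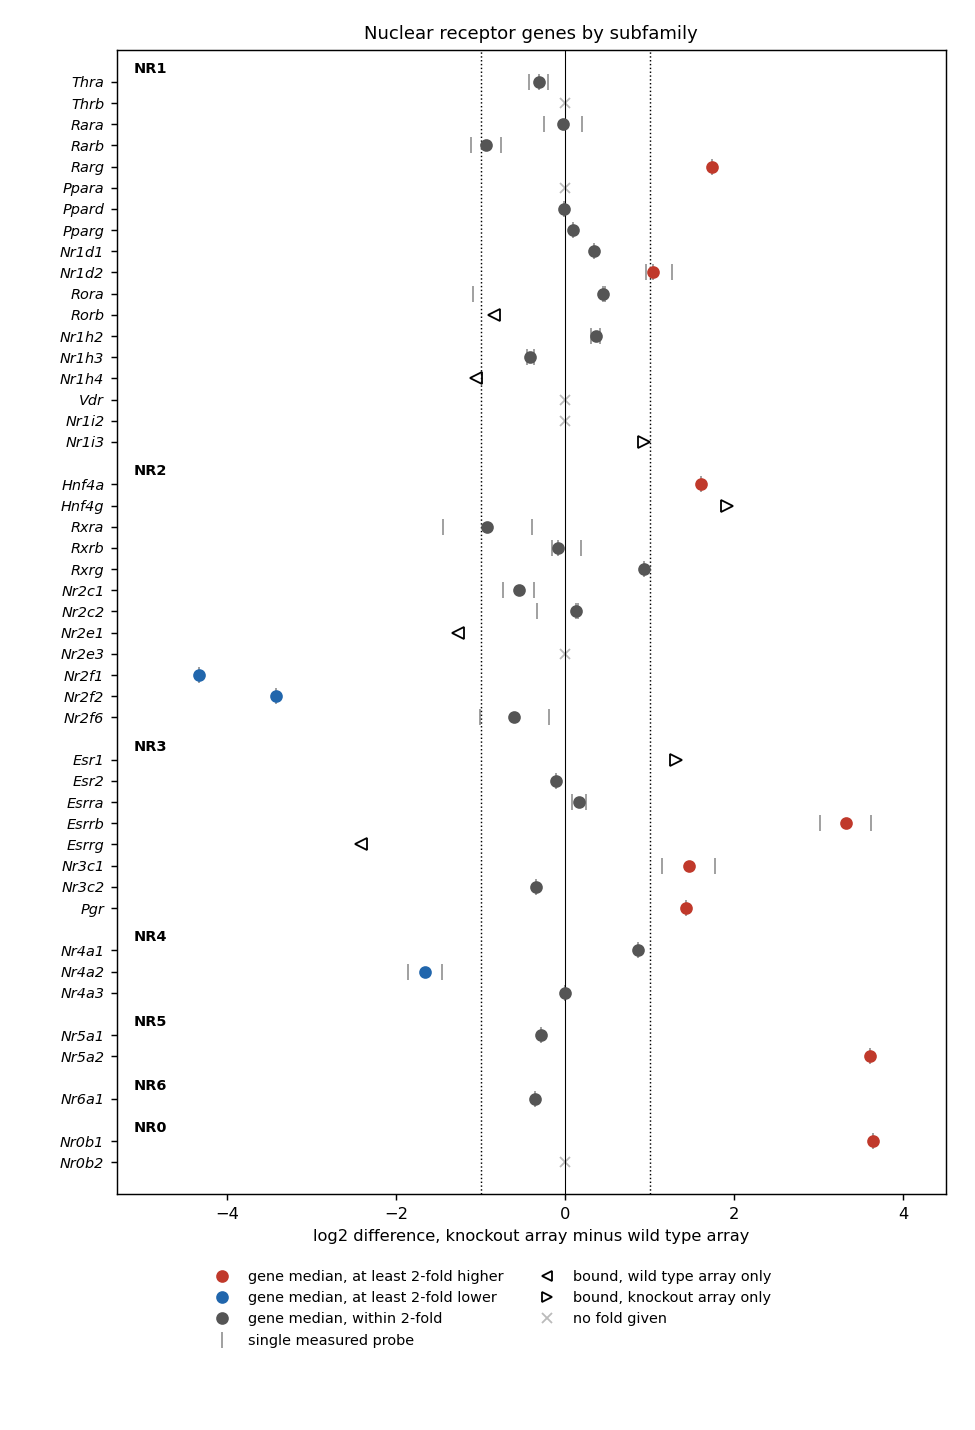
Log2 difference, knockout array minus wild type array, of each nuclear receptor gene, ordered by subfamily. Filled circles are gene medians, small vertical ticks are single measured probes, open triangles are lower bounds for genes well above background on 1 array only, crosses are genes with no fold, and dotted lines mark 2-fold. Nr0b1, Nr5a2 and Esrrb lie at 3.64, 3.61 and 3.32, and Nr2f1 and Nr2f2 at -4.33 and -3.42.

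Signals below are in the scanner's arbitrary units, scaled so that both arrays share a 75th percentile, and the signal of one probe cannot be set against that of another. The error that the software assigns to a probe's signals gave a median of 0.21 and a maximum of 0.37 for the log2 difference of a measured receptor probe, and probes printed in many spots varied with an SD of 0.10 for the same difference. Both describe error within an array, not the spread between cultures. Fewer cells of a type and less RNA per cell cannot be told apart in these bulk samples. Probe positions are on mouse build mm9, and which exon or UTR a probe lies in was not annotated here.

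Among the orphan receptors of the pluripotent network, all 3 were about 10-fold or more higher on the knockout array. Nr0b1 (Dax1), which lacks the usual DNA-binding domain and acts as a corepressor, had a signal of 515 in wild type and 6394 in knockout cells at its probe on chrX:83441169-83441228. This is a log2 difference of 3.64, or 12.4-fold. Nr5a2 (Lrh1), which binds DNA as a monomer and can drive Oct4 transcription, had signals of 334 and 4070 at chr1:138740903-138740962, a log2 difference of 3.61 or 12.2-fold. Esrrb, an orphan relative of the oestrogen receptors, was measured by 2 probes on chromosome 12. The probe at chr12:87862509-87862568 went from 1637 to 20070 and the probe at chr12:87856069-87856128 from 22.4 to 181, so that the log2 differences were 3.62 and 3.01 and their median 3.32, or 9.95-fold. The wild type signal of the second probe lay close to the lowest signal called well above background on that array, 21.3, and with normexp background correction the Esrrb median was 2.52.

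Their nearest relatives differed from them in size or direction. Nr5a1 (Sf1), the steroidogenic relative of Nr5a2, had signals of 121 and 98.9, a log2 difference of -0.29. Esrra, which with its coactivators controls mitochondrial genes, had a median log2 difference of 0.17 over 2 probes. Esrrg was well above background in wild type cells only. Its probes gave 162 in wild type against 17.4 in knockout cells, and 77.9 against 6.35, and the third probe was not well above background on either. Against the lowest signal called well above background on the knockout array, 30.5, the first of these makes Esrrg at least 5.32-fold lower and the second at least 2.56-fold lower.

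Nr2f1 and Nr2f2 (COUP-TFI and COUP-TFII), closely related orphan receptors that act mostly as repressors and pattern the nervous system, gave the lowest differences of the measured receptors. The Nr2f1 signal at chr13:78328723-78328782 was 29265 in wild type and 1455 in knockout cells, a log2 difference of -4.33 or 20.1-fold lower. Nr2f2 at chr7:77496873-77496932 went from 3315 to 310.3, a log2 difference of -3.42 or 10.68-fold lower. The third relative, Nr2f6, lay within 2-fold with a median of -0.60, but its 2 probes, 919 bases apart, disagreed. The 3′ probe went from 16398 to 8127 (log2 difference -1.01) and the 5′ probe from 98.5 to 86.5 (-0.19).

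Nr2e1 (Tlx), a repressor that keeps neural stem cells proliferating, was well above background in wild type cells only. Its signals of 73.2 and 7.07 make it at least 2.40-fold lower, and its other probe, at 19.9 and 7.23, was not well above background on either array. Nr4a2 (Nurr1), a ligand-independent receptor needed for midbrain dopamine neurons, was lower at both of its probes, from 411 to 113 and from 276 to 101. The log2 differences were -1.86 and -1.45, and their median of -1.66 corresponds to 3.15-fold lower. Its immediate-early relatives did not pass the limit: Nr4a1 (Nur77) had signals of 2276 and 4140, a log2 difference of 0.86. Nr4a3 (Nor1) had signals of 61.7 and 61.8 at the only probe measured of 3, while another of its probes was well above background in wild type cells alone, at 24.9 against 6.93.

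**Figure D2:**
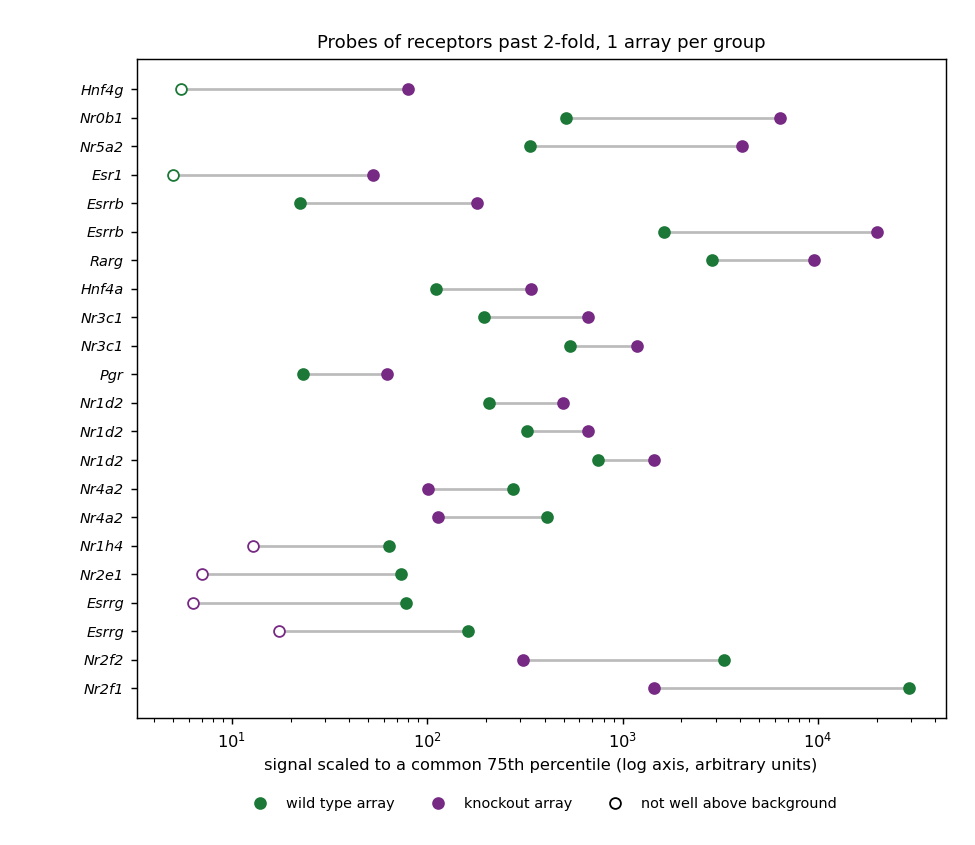
Signal of each probe, on a log axis in arbitrary units scaled to a common 75th percentile, for receptors at least 2-fold different or with a lower bound of at least 2-fold, ordered by the gene's difference. Green circles are the wild type array, purple circles the knockout array, and open circles signals not well above background, and all probes of a gene that were well above background on an array lie on the same side. Nr2f1 falls from 29265 to 1455 and Nr0b1 goes from 515 to 6394.

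The windows of 250 bases before the transcription start of the receptor genes were searched for the letters AGGTCA, the hexamer read by many nuclear receptors, on both strands. The sequences are RefSeq's for build GRCm38.p6, and 42 receptors had 63 windows. The hexamer was present for 10 of the 42 receptors (23.8%), against 15.8% of all 27025 genes with windows, and in 17.5% of the receptor windows against 14% of 32851. It was found for 4 of 7 receptors that were higher on the knockout array (Rarg, Nr1d2, Nr5a2 and Nr0b1), for 0 of 3 that were lower, for 4 of 20 within 2-fold (Pparg, Rxra, Rxrg and Nr6a1), and for 2 of 12 without a measured difference (Thrb and Nr1h4). The longer form TCAAGGTCA, which contains the hexamer and is favoured by Esrrb and Nr5a2, was in the window of 0 of the 42 receptors and 0.422% of genes. The POU octamer ATGCAAAT was in 0 of 42 and 1.81% of genes, and the SOX core CATTGT in 5 of 42 (11.9%) and 12.2% of genes. A match describes letters in a window and shows no binding. The windows below are those of the 4 higher receptors that hold the hexamer, with it in capitals (on the opposite strand, it reads TGACCT), and of Nr2f1, with the largest difference of the measured receptors, for comparison. They were chosen after the values were seen, and each is written in the direction of transcription.
Nr0b1, chrX:86191525-86191774, plus strand: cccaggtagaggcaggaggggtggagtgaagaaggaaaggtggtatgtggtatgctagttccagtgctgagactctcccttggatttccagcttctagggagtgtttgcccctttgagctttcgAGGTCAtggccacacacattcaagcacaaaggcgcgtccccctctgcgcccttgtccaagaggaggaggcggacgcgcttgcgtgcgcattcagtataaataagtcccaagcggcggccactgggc
Nr5a2, chr1:136960449-136960698, minus strand: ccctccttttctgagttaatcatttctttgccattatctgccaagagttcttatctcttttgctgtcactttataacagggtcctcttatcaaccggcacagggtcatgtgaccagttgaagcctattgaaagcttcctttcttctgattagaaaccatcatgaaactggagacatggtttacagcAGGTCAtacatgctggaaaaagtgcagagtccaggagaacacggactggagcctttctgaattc
Nr1d2, chr14:18239107-18239356, minus strand: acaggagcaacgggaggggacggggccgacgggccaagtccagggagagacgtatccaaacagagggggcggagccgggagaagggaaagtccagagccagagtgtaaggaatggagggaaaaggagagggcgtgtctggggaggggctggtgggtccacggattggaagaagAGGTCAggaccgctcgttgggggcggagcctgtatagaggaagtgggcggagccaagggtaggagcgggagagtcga
Rarg, chr15:102257523-102257772, minus strand: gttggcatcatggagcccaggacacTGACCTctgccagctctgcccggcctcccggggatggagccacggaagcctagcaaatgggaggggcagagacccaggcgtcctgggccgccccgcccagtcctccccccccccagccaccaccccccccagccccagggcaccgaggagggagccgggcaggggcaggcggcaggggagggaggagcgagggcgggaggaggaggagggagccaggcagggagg
Nr2f1, chr13:78198874-78199123, minus strand: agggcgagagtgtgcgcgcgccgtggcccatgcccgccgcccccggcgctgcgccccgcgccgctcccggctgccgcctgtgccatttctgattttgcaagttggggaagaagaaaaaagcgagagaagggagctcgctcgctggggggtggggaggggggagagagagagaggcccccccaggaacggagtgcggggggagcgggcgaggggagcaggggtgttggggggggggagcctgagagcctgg

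The hexamer began 126 bases before the start of Nr0b1, 64 before that of Nr5a2, 77 before that of Nr1d2 and, on the opposite strand, 225 before that of Rarg. Base composition also varied among the windows. Some windows of a gene overlap, as for Rara, so the windows are not independent. The median GC content was 52.4% for the 11 windows of 7 higher receptors and 61.0% for the 4 windows of 3 lower receptors. It was 63.4% for the 30 windows of 20 receptors within 2-fold, against 52.4% over all windows. The observed over expected ratio of CpG dinucleotides had medians of 0.32, 0.47 and 0.60 in the same order, against 0.37 over all windows.

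Of the retinoid receptors, Rarg was at least 2-fold higher on the knockout array and the others lay within 2-fold. Retinoic acid, a morphogen that patterns the hindbrain and spinal cord, binds the receptors Rara, Rarb and Rarg, which pair with Rxra, Rxrb or Rxrg on DNA. Rarg had a signal of 2869 in wild type and 9540 in knockout cells at chr15:102065371-102065430, a log2 difference of 1.73 or 3.33-fold higher, while its other 2 probes were not well above background. Rarb, itself a target of retinoic acid, lay just inside the limit on the lower side, with 421 and 248 at one probe, 153 and 70.6 at the other, and a median log2 difference of -0.94. Rara had a median of -0.03, with probes at 0.20 and -0.26.

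Of the partners, Rxra had a median log2 difference of -0.92, but its 2 probes, 3029 bases apart, disagreed. The 3′ probe went from 13398 to 4926 (-1.44) and the 5′ probe from 118 to 89.5 (-0.40). Rxrb had a median of -0.08 over 3 probes. Rxrg, the form with the most restricted expression in the embryo, had signals of 298 and 568, a log2 difference of 0.93.

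The genes that supply, remove or answer to retinoic acid were lower more often than higher. Of 15 such genes on the array, 12 were measured, 6 were at least 2-fold lower and 1 higher, and the median log2 difference was -0.87 against 0.10 for all gene names. Hoxb1, a hindbrain gene and direct target of retinoic acid, had signals of 1653 and 204, a log2 difference of -3.02. Cyp26b1, which degrades retinoic acid, had signals of 7813 and 1284 (-2.61). Dhrs3, a reductase that returns retinaldehyde to retinol, was the gene that was higher, by 4.65-fold (2.22). Of the genes without a measured difference, Aldh1a1 and Cyp26c1 were well above background in wild type cells only and Aldh1a3 on neither.

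Thyroid hormone and vitamin D receptors gave little signal or small differences. Thra, the thyroid hormone receptor of most tissues, had a median log2 difference of -0.31 over 3 measured probes. Vdr, the vitamin D receptor, was well above background in wild type cells only, at 30.2 against 19.3, which gives no fold because the knockout array's lowest signal called well above background was 30.5. Of 10 genes that handle these hormones, 5 were measured, 2 were higher and 0 lower, with a median of 0.73. They were Hr, a corepressor of the thyroid hormone and vitamin D receptors, which went from 40.6 to 333 (3.04), and Crym, which binds thyroid hormone in the cytosol and went from 322 to 1542 (2.26). Dio2, Dio3, Cyp24a1 and Cyp27b1, enzymes that activate or inactivate the hormones, were not well above background on either array. Dio1 was well above background in wild type cells only.

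The lipid-sensing receptors that were measured lay within 2-fold. Ppard, the widely expressed fatty acid receptor, had signals of 901 and 893 and a log2 difference of -0.01, and Pparg, the regulator of fat cell formation, had 65.6 and 69.9 (0.09). Nr1h2 and Nr1h3 (LXRβ and LXRα), receptors for oxysterols, had medians of 0.36 and -0.41 over 2 probes each. Nr1h4 (FXR), the bile acid receptor, was well above background in wild type cells only, with 63.5 against 12.9, at least 2.09-fold lower, and its other probe was not well above background on either array.

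Among 14 measured PPAR target genes, 5 were higher and 1 lower, with a median log2 difference of 0.12. Pdk4, a kinase that restrains glucose oxidation, went from 53.5 to 429 (3.01), and Angptl4, an inhibitor of lipoprotein lipase, from 1013 to 4747 (2.23). Cd36, a fatty acid carrier, was the gene that was lower, from 231 to 50.7 (-2.19). Among 12 sterol and LXR target genes, 2 were higher, 1 was lower and the median was -0.07. The higher genes were the cholesterol exporter Abcg1, from 246 to 978 (1.99), and the apolipoprotein Apoe, with a median of 1.55 over 2 probes, and the lower gene was the desaturase Scd2, from 34228 to 16325 (-1.07).

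Of the receptors of the circadian clock, Nr1d2 (Rev-erbβ), a haem-binding repressor of clock genes, stood at the limit. Its 3 probes went from 207 to 495, from 324 to 665 and from 745 to 1443, with log2 differences of 1.26, 1.04 and 0.95 and a median of 1.04, or 2.05-fold higher. Its value fell below 2-fold under 3 of 11 other ways of processing, to a lowest value of 0.67. Nr1d1 (Rev-erbα), the other repressor, had signals of 44.8 and 56.8 and a log2 difference of 0.34.

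The activators of the clock loop did not share a direction. Rora had a median of 0.45. Its 2 probes near the 3′ end gave 0.45 and 0.47, and a probe 715701 bases upstream of the last one went the other way, from 76.8 to 36.2 (-1.09). Rorb, of the retina and brain, was well above background in wild type cells only, with 54.7 against 7.64, which makes it at least 1.80-fold lower, short of the limit. Among 11 measured clock genes 1 was higher, Bhlhe40 from 178 to 516 (1.54), and 2 were lower, Per2 (-1.36) and Nfil3 (-1.30), with a median of -0.05.

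Of the steroid receptors, Nr3c1 and Pgr were higher on the knockout array. Nr3c1, the glucocorticoid receptor, went from 538 to 1189 at one probe and from 194 to 665 at the other, with log2 differences of 1.14 and 1.77 and a median of 1.46, or 2.75-fold. Pgr, the progesterone receptor, passed the limit on 1 of 4 probes, from 23.2 to 62.5 (log2 difference 1.43, 2.69-fold), beside a lowest wild type signal called well above background of 21.3. With another background correction the difference was 0.74. Nr3c2, the mineralocorticoid receptor, had 76.3 and 60.2 at the only probe measured of 3 (-0.34).

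Of the oestrogen receptors, Esr1 was well above background on the knockout array only, and only at 1 of its 7 probes, with 5.01 against 52.9, at least 2.48-fold higher. Esr2 had signals of 3520 and 3263 at 1 probe (-0.11), and its other probe, 4.46 and 8.54, was not well above background on either array.

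Heat-shock chaperones and their cochaperones hold steroid receptors ready for ligand, and they were listed together with target genes of the glucocorticoid receptor. Of these 12 genes, all measured, 3 were higher and 2 lower, and the median log2 difference was 0.66. Of the 6 chaperones and cochaperones, Hsp90aa1 was 2.26-fold higher (1.18) and the other 5 lay within 2-fold, between 0.30 for Hsp90ab1 and 0.87 for Fkbp4. These 3 were named after their values were seen. The targets past 2-fold lay in both directions. The kinase Sgk1 was 8.998-fold higher (3.17) and the transcription factor Klf9 6.46-fold higher (2.69), while Zbtb16 was 5.44-fold lower (-2.44) and Tsc22d3 (Gilz) 3.10-fold lower (-1.63), and all of these are known targets of the receptor in other cells. Of 7 measured genes of steroid synthesis, 2 were higher and 0 lower (median 0.42). They were Cyp11a1, the side-chain cleavage enzyme that starts the pathway, 8.35-fold higher (3.06), and Cyp17a1, from 345 to 694 (1.01).

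Hnf4a, a receptor of liver, gut and the visceral endoderm, and its relative Hnf4g were both higher on the knockout array at low signal. Hnf4a went from 111 to 339 at 1 of its 2 probes, a log2 difference of 1.61 or 3.05-fold. Hnf4g was well above background on the knockout array only, with 5.50 against 80.0, at least 3.76-fold higher. Nr1i3 (CAR), a xenobiotic sensor of liver, had 12.8 against 40.8, well above background on the knockout array only, and at least 1.91-fold higher, short of the limit. Among 10 endoderm marker genes, all measured, 3 were higher and 3 lower with a median of 0.17. The higher ones were Afp (1.39), Ttr (1.29) and Amn (1.54), and the lower ones were Foxa1 (-3.17), Foxa2 (-1.88) and Cxcr4 (-2.37). Sox17 (-0.001), Gata4 (0.24), Gata6 (0.28) and Apoa1 (0.10) lay within 2-fold. The summed signal of the 10 markers went from 28692 to 9774, of which Foxa2 made up 21971 and 5975. All of these markers were named after their values were seen. Their part in the difference of Hnf4a was not tested.

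The remaining orphan receptors lay within 2-fold. Nr6a1 (GCNF), which silences Oct4 when embryonic stem cells differentiate, had signals of 15278 and 11902, a log2 difference of -0.36. Nr2c1 and Nr2c2 (TR2 and TR4), repressors of embryonic globin genes, had medians of -0.55 over 2 probes and 0.13 over 3.

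Coregulators are the proteins that receptors recruit to activate or repress transcription. Of 20 measured, 1 was higher, the coactivator Ncoa3 at 2.13-fold (1.09), and 1 lower, the corepressor Nrip1 at 2.02-fold (-1.02), and the median was -0.11. The coactivator Ppargc1a was well above background in wild type cells only. The plot of pathway lists sets these genes beside the receptors.

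**Figure D3:**
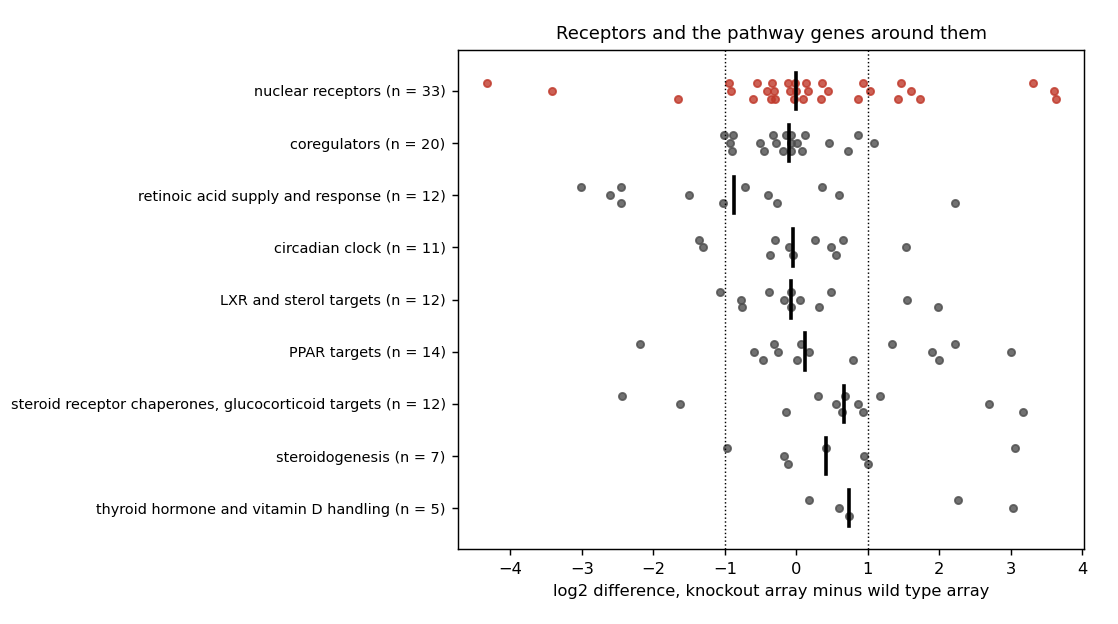
Log2 difference, knockout array minus wild type array, of each measured gene in the receptor set (red) and in 8 lists of genes that act with or downstream of receptors (grey). Each point is a gene, thick bars are medians, small vertical offsets within a row only separate points, and dotted lines mark 2-fold. The median of the retinoic acid list is -0.87, and the medians of the other lists lie between -0.11 and 0.73.

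Markers of the cell states that such cultures can hold were set beside these receptors. Of 10 naive pluripotency markers, 9 were at least 2-fold higher on the knockout array and none lower (median log2 difference 2.91), and their summed signal went from 9705 to 89049. The other marker, Nanog, named after its values were seen, had a median of 0.66, and its 2 measured probes went opposite ways (-1.63 and 2.95). Of 10 primed epiblast markers 8 were higher and none lower (median 2.04, summed signals 46707 and 180881). Of 9 measured neural progenitor markers 8 were lower and none higher (median -3.19, summed signals 97742 and 10378), and the same counts held for 9 measured neuron markers (median -3.17, 68869 and 52823). The neuron sum rests on Stmn2, within 2-fold at 0.21, and without it was 37212 and 6517. Of 8 measured trophoblast markers 5 were higher and 2 lower (median 1.78, summed signals 61267 and 44695), and the keratin Krt18 alone, within 2-fold at -0.29, made up 31885 and 26134 of the sums. Of 5 measured mesoderm and cardiac markers 1 was higher and 1 lower (median -0.11, 1727 and 1847). A sum of signals weights bright probes most, so that the medians and counts need not follow it. Mesp1, Hand1, Tnnt2 and Elf5 were not well above background on either array, and Olig2, Neurod4, Hand2 and Nkx2-5 only in wild type cells. The part of these cell states in the differences of Nr0b1, Nr5a2, Esrrb, Nr2f1 and Nr2f2 was not tested.

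**Figure D4:**
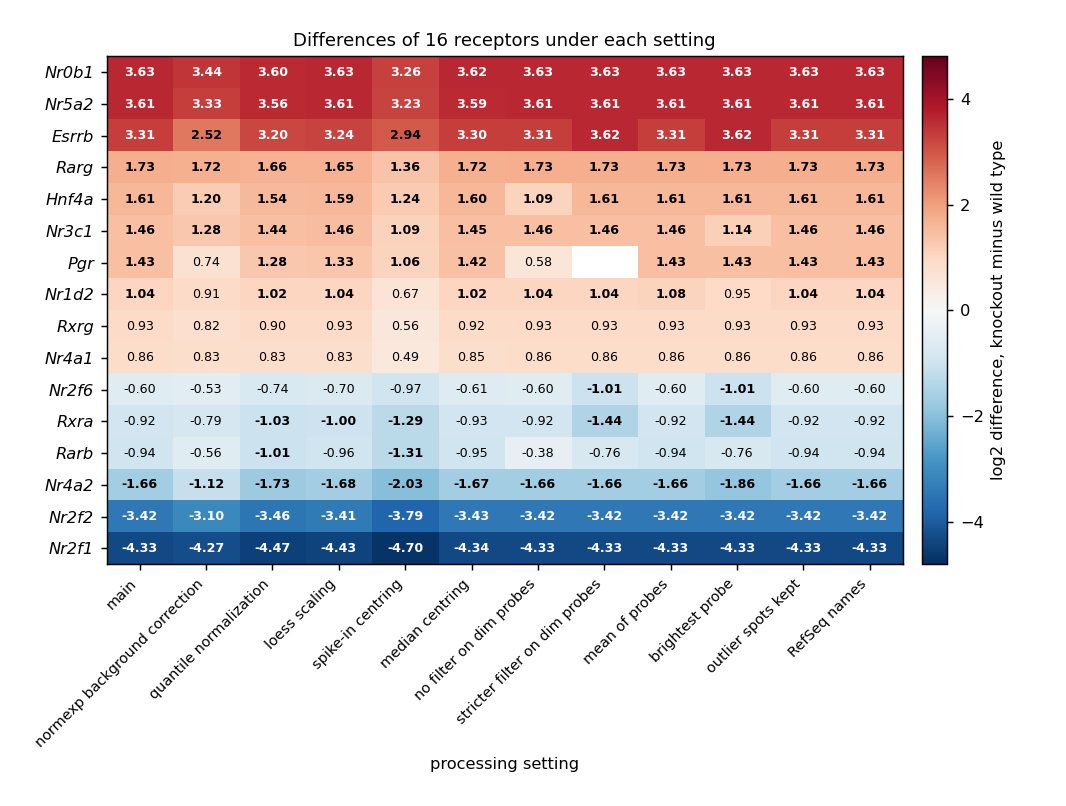
Log2 difference, knockout minus wild type, of 16 receptors (rows), those past 2-fold and the 5 nearest to it, under the main processing and 11 alternatives (columns), with red for higher and blue for lower on the knockout array and bold type for differences of at least 2-fold. The blank cell is Pgr, whose probe does not pass the stricter filter. Nr0b1 stays between 3.26 and 3.64 and Nr2f1 between -4.70 and -4.27, while Nr1d2 and Pgr fall inside 2-fold under some alternatives and Rxra, Rarb and Nr2f6 pass it under some.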

How the data were processed

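RNA was measured on 1 one-colour Agilent array per group, 2 in all. Spot intensity values were deposited as written by Agilent Feature Extraction 10.7.1.1, per the submitters' processing notes. Background had been subtracted within each array, and nothing was done to make the arrays alike, per the file headers. Slide and scan, by the headers, were shared and do not separate the groups.

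From the 62976 spots per array, control and outlier spots were left out (173 outlier spots on the wild type array, 155 on the knockout array), spots of a probe were averaged as log2 values, and each array was centred on its 75th percentile (863.7 and 652.4 before centring). A probe was measured where the software called 0.5 or more of its spots well above background on both arrays (31536 of 56605 probes), and 0 spots were saturated. A gene's value is the median over its measured probes. A gene well above background on 1 array has a lower bound against the lowest signal called so on the other array, or its own signal there where that is higher. Gene names are those of the files; naming by RefSeq renamed no receptor probe, and no receptor probe shared 25 bases in a row with a probe of another gene. With 1 array a group nothing was tested, and the number of arrays limits the precision.

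The receptors, the gene lists and the promoter motifs were chosen with earlier results of these data known. All receptors are accounted for, and at most the 2 highest and 2 lowest genes past 2-fold of each list are named, beside genes not above background on an array, the gene that carries most of a summed signal, and genes said to be named after their values were seen. The steps were tested on simulated arrays. Python 3.11.15, pandas 2.3.3, R 4.3.3 and limma 3.58.1 were used. The 11 alternatives were normexp background correction (offset 50), quantile, loess, spike-in and median scaling, no filter or a stricter filter on dim probes, the mean or the brightest probe of a gene, outlier spots kept, and RefSeq names.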

Additional observations from a re-analysis of the deposited data

How the results depend on the processing

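Of the 11 receptors at least 2-fold different, 9 kept their direction and their side of the limit under all 11 alternatives. The exceptions were Nr1d2, which fell to 0.91 with normexp, 0.67 with spike-in centring and 0.95 with the brightest probe, and Pgr, which fell to 0.74 with normexp and 0.58 without a filter on dim probes. No called receptor changed direction. The count of higher receptors was 8 of 33 measured, and became 6 with normexp. It was 7 with spike-in centring, the brightest probe or the stricter filter (of 27). With no filter it was 9 of 46, with Hnf4g and Nr1i3 added. Over all gene names the higher share was 11.5% in the main processing, 8.34% with normexp and 7.57% with spike-in centring. It was 11.6% with the brightest probe, 8.76% with the stricter filter and 12.2% with no filter. The count of lower receptors was 3 of 33 measured. It became 4 with loess scaling, and 5 with quantile normalization, spike-in centring, the brightest probe or the stricter filter (of 27). With no filter it was 6 of 46. The added receptors were Rxra with loess scaling, and Rarb and Rxra with quantile and spike-in scaling. The stricter filter and the brightest probe added Rxra and Nr2f6. No filter, which takes values near background, added Esrrg, Nr2e1 and Rorb. Over all gene names the lower share was 8.81% in the main processing and 9.2% with loess scaling. It was 9.65% with quantile normalization, 15.5% with spike-in centring, 8.15% with the stricter filter, 9.36% with the brightest probe and 7.86% with no filter. The median of the receptors was -0.37 with spike-in centring and 0.15 with no filter, against 0.00. Spike-in centring lowers every difference alike and moved the median of all gene names by -0.37, so that 32.8% of the gene names past 2-fold were higher, against 56.6%, with 1414 higher and 2900 lower against 2150 and 1646. Normexp gave 1558 higher and 1050 lower of 18690 gene names (8.34% and 5.62%). The stricter filter gave 1332 higher and 1239 lower of 15204 (8.76% and 8.15%). No filter gave 4042 higher and 2594 lower of 33008 (12.2% and 7.86%), against 11.5% and 8.81% in the main processing. Quantile normalization moved the median by -0.10 and no filter by 0.29. Within 2-fold, Pparg, Nr1d1, Nr1h2, Nr2c2, Esrra and Nr4a3 turned negative with spike-in centring. With 1 array a group, no replicate could be left out and no paired analysis was possible. Low signal limits Pgr and, of the receptors well above background on 1 array only, Vdr, Esr1, Rorb, Nr1i3, Nr1h4, Nr2e1 and Hnf4g. Their signals were low on both arrays.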

Other observations

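For the 16 receptors with several measured probes, the log2 differences of a gene's probes spanned less than 0.5 in 11 and more than 1 in 2 (Rora and Rxra). The probe nearest the 3′ end had the lower difference in 9 of the 16 and the higher in 7, with a median of -0.14 for the 3′ probe minus the 5′ probe.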
